A study of Homo sapiens with 6 samples.

Results

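The enzymes that make serine and pass its carbon into the folate cycle were examined in OCI-AML5 cells exposed to the compound S767. The genes were listed by symbol from the known pathway, namely PHGDH, PSAT1, PSPH, SHMT1, SHMT2, MTHFD1, MTHFD1L, MTHFD2, ALDH1L2 and SLC1A5, and all 10 were found among the 60609 genes of the deposited tables. All 10 also had enough counts to be tested, as did 20725 genes in all. The cells are a human line established from acute myeloid leukemia and were grown with the cytokine GM-CSF. Stranded mRNA libraries, 3 per group, were made from cells given DMSO, the solvent, and from cells given S767 at 1 μM, both for 24 hours. S767 is known by its code name and came from a chemical screen in primary leukemia specimens, and the experiment was done to learn how it acts on these cells. All 6 libraries come from a single cell line, and the labels do not say whether replicates were grown apart, so the p-values measure the spread between these libraries, which may be technical.

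PHGDH, PSAT1 and PSPH turn the glycolytic intermediate 3-phosphoglycerate into serine in consecutive steps. SHMT1 in the cytosol and SHMT2 in mitochondria split serine into glycine and a carbon unit carried by tetrahydrofolate, and the MTHFD enzymes and ALDH1L2 interconvert or release the carried unit, with MTHFD2, MTHFD1L and ALDH1L2 in mitochondria and MTHFD1 in the cytosol. The carbon units feed purine, thymidylate and methionine synthesis, and the pathway is known to be active in proliferating leukemia cells and to be induced by the transcription factor ATF4 when amino acids are short.

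The libraries held 149994700 to 258029564 fragments counted on genes. The lowest count of any member in any library was 4059, for PSPH, and counting error alone was then 1.57% of the value, so the spread between libraries and not the depth limited the comparisons. Levels are given as TPM, the abundance that RSEM scales for transcript length and library total, and CPM, the count of a gene relative to the TMM-scaled library total, was used to compare treatments. The myeloid markers PTPRC, CD33, SPI1, MPO and CSF2RA were expressed in every library, and the 8 myeloid markers together held 410 to 458 TPM in DMSO and 413 to 467 TPM in S767. ANPEP and KIT stayed under 1 TPM and CD34 ranged from 0.61 to 2.65 TPM. The T cell markers CD3E and CD2 and the epithelial marker KRT18 were at 0 throughout, whereas CD79A, a B cell gene, reached 6.63 to 11.2 TPM and TRAC, a T cell gene, 2.42 to 6.30 TPM. In bulk RNA, fewer cells of a kind and less RNA per cell cannot be told apart.

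Stretches near the RefSeq starts of 3 members are shown because PHGDH and PSAT1 varied together across libraries and SHMT1 was the member that differed most between treatments. RefSeq promoter windows (GRCh38.p14, 300 bases a window, with several windows for genes with several starts) were found for 7 of the 10 members, and were not found for PSPH, SHMT2 and ALDH1L2. The stretches are written 5′ to 3′ on the strand of the gene, at chr1:119711851-119711880 on the plus strand for PHGDH, chr9:78296975-78297124 on the plus strand for PSAT1 and chr17:18363564-18363700 on the minus strand for SHMT1. The PHGDH stretch lies wholly within an annotated exon in GENCODE 29, where the gene starts upstream, at 119648411. Capitals mark the letters CCAAT, or ATTGG where the match lies on the other strand.
PHGDH: gagtatttccgtCCAATcaaaaggagactg
PSAT1: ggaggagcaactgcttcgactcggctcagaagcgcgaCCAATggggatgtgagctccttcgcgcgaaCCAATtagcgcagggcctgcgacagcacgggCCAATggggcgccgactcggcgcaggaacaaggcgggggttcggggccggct
SHMT1: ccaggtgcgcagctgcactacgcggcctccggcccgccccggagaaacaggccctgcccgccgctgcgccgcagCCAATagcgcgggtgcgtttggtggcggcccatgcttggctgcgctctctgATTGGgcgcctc
PSAT1 held 3 such matches, at 113, 83 and 52 bases before the RefSeq start, SHMT1 held 2, at 76 and 25 bases before it, and PHGDH held 1, at 71 bases before it. CCAAT on either strand was in the windows of 7 of the 7 members with a sequence, and in those of 39.7% of 27305 genes. The C/EBP-ATF letters TGATGNAA were in the windows of MTHFD1L and SLC1A5, and of 4.46% of genes, and the E-box letters CACGTG were in those of MTHFD1, MTHFD1L and SLC1A5, and of 8.77% of genes. A gene was counted when any of its windows held the letters. In SLC1A5 the motifs were each in a different window, and the windows of MTHFD1L that held them overlap each other. None of the 3 motifs contains another, each was searched on both strands, and a match describes the letters in the window and not a bound site. The motifs and the stretches shown were chosen after the expression values had been seen.

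All 10 members were expressed in every library, over a wide range of levels. In mean TPM in DMSO, the glutamine and neutral amino acid transporter SLC1A5 stood first (229 ± 9.33, SD, n = 3), followed by SHMT2 (217 ± 3.33), MTHFD2 (162 ± 9.96), MTHFD1 (152 ± 4.68), PHGDH (141 ± 12.5) and PSAT1 (119 ± 9.82). MTHFD1L lay at 78.8 ± 1.91 TPM, and SHMT1 (26.1 ± 0.320), PSPH (22.1 ± 0.900) and ALDH1L2 (14.6 ± 1.38) were the lowest. Of the 9 pairs of neighbours in this order, 5 were separated in all 6 libraries without overlap, namely SHMT2 above MTHFD2, PSAT1 above MTHFD1L, MTHFD1L above SHMT1, SHMT1 above PSPH and PSPH above ALDH1L2. The other neighbours overlapped, and MTHFD2 exceeded MTHFD1 in 4 of 6 libraries. The final step of serine synthesis, PSPH, was thus listed well below the first steps, and the mitochondrial SHMT2 well above the cytosolic SHMT1.

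**Figure D1:**
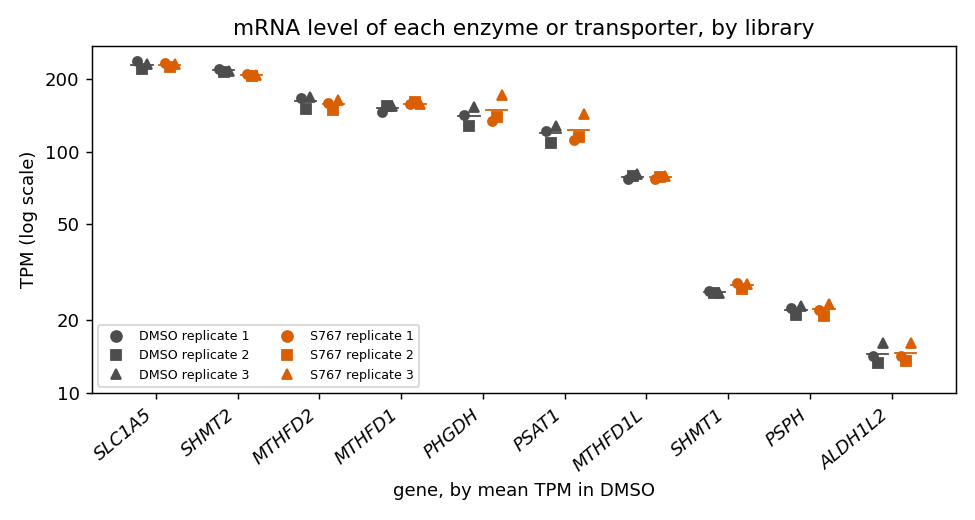
TPM (log axis) of the 10 genes in each library, ordered by mean TPM in DMSO, with DMSO in gray and S767 in orange, a symbol for each replicate number and a line at the mean of 3 libraries. Levels run from 13.3 TPM for ALDH1L2 to 237 TPM for SLC1A5, and the treatments overlap for 7 of the genes.

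Across the pathway, differences between treatments were small beside the differences between genes. Fitted log2 fold changes of the 10 members (S767 against DMSO, edgeR's quasi-likelihood test) ran from -0.04 for SHMT2 to 0.11 for SHMT1, 7 above 0 and 3 below, with a median of 0.02 against -0.00024 over all genes tested. The cytosolic SHMT1 was the 1 member of 10 with P under 0.05, and it was higher in S767. The same limit was passed by 3.53% of all genes tested, and by 2.03% in that direction. After Benjamini-Hochberg adjustment over all 20725 genes, edgeR called 0 of the 10 members, as did limma-voom and DESeq2, which also each gave 1 member at an unadjusted P under 0.05. The share of all genes past the adjusted limit in edgeR was 0.00483%. The 95% intervals of this fit, taken gene by gene, reached from -11.9% (ALDH1L2) to 24.3% (PHGDH) over the 10 members. They measure the spread between these libraries and are not joint over the members.

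The replicate numbers of the labels went together with shared deviations between DMSO and S767 libraries, and a fit that took the replicate number as a block narrowed the intervals. With the block, 2 of 10 members, SHMT1 and MTHFD1, had P under 0.05, where 16.8% of all genes did. Both are cytosolic enzymes and both were higher in S767, as were 9.38% of all genes at that limit. SHMT1 alone passed the Benjamini-Hochberg limit in edgeR's quasi-likelihood test with the block, where 3.23% of all genes did, and 2.16% on the higher side. With 10 members, nothing particular to the pathway is read from these counts.

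**Figure D2:**
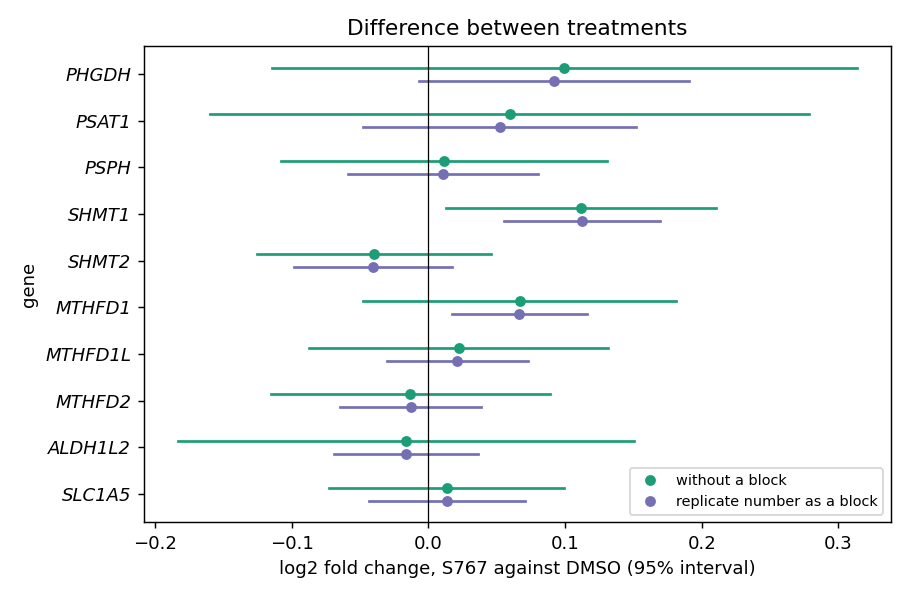
Log2 fold change of each gene (S767 against DMSO, 3 libraries each) from edgeR's quasi-likelihood fit, with its 95% interval, without a block (green) and with the replicate number as a block (purple). Without a block the interval of SHMT1 is the single one that leaves out 0 (0.01 to 0.21), and with the block those of SHMT1 and MTHFD1 leave it out.

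Serine synthesis begins with PHGDH (ENSG00000092621.12, chr1:119648411-119744226 in GENCODE 29 on GRCh38), the dehydrogenase that commits 3-phosphoglycerate to the pathway. Its level was 141, 128 and 153 TPM in DMSO replicates 1, 2 and 3, and 134, 139 and 171 TPM in S767 replicates 1, 2 and 3. The groups overlapped, and the highest and the second lowest values were both in S767. The log2 fold change was 0.10 ± 0.09 (SE), with a 95% interval of -0.11 to 0.31, an adjusted p = 1.00 in edgeR's quasi-likelihood test (Benjamini-Hochberg) and an exact permutation p = 0.6. An exact permutation test over libraries, here and for the genes that follow two-sided and on log2 CPM, cannot give a p below 0.1 with 3 libraries against 3.

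PSAT1 (ENSG00000135069.14, chr9:78297143-78330093), the aminotransferase of the following step, gave 122, 108 and 128 TPM in DMSO and 112, 115 and 143 TPM in S767. As for PHGDH, replicate 3 was the highest library within either treatment, and S767 replicate 3 the highest of all. PSAT1 had a log2 fold change of 0.06 ± 0.10 (SE), with a 95% interval of -0.16 to 0.28. PSPH (ENSG00000146733.14, chr7:56011051-56051604), the phosphatase that releases serine, varied less, with 22.4, 21.1 and 22.8 TPM in DMSO and 22.2, 20.9 and 23.5 TPM in S767. The difference was 0.01 ± 0.05 (SE) in log2 fold change, with a 95% interval of -0.11 to 0.13. PSPH shares sequence with the unprocessed pseudogene PSPHP1, on which 422 to 725 fragments were counted per library but to which RSEM assigned 1 to 7, so the division of reads between them is uncertain. The other 13 pseudogenes named after members held at most 38 counts in any library.

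The spread of the first steps depended on single libraries. Within replicate numbers, PHGDH in S767 minus DMSO was -0.10, 0.17 and 0.22 in log2 CPM for replicates 1, 2 and 3, and PSAT1 was -0.14, 0.12 and 0.18. Both were thus lower in S767 in replicate 1 and higher in replicates 2 and 3. Without S767 replicate 1 the log2 fold change of PHGDH was 0.19, with P under 0.05 in edgeR's quasi-likelihood test, whereas without S767 replicate 3 it was -0.016 and that of PSAT1 was -0.06. With the block and without the replicate 1 pair, an alternative chosen after seeing the data, PHGDH gave 0.19 (adjusted p = 3.4e-08 in edgeR's quasi-likelihood test, Benjamini-Hochberg) and PSAT1 0.15 (adjusted p = 6.3e-06), in a fit where 9.62% of all genes passed the adjusted limit and 20.8% had P under 0.05. Only the replicate 2 and 3 pairs remain in that fit, so its p-values rest mainly on variance that edgeR shares over genes. They say little of the spread between these libraries, as in every fit here that leaves out a pair. With the block and all pairs PHGDH gave 0.09 (adjusted p = 0.33) and PSAT1 0.05 (adjusted p = 0.64). Without the replicate 2 pair the values were 0.06 (adjusted p = 0.84) and 0.02 (adjusted p = 0.96), and without the replicate 3 pair they were 0.03 (adjusted p = 0.84) and -0.02 (adjusted p = 0.90), all in edgeR with the block. Over S767 libraries the coefficient of variation in CPM was 14.1% for PHGDH and 14.4% for PSAT1, against 6.79% and 7.13% over DMSO libraries, with 3 libraries in each.

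**Figure D3:**
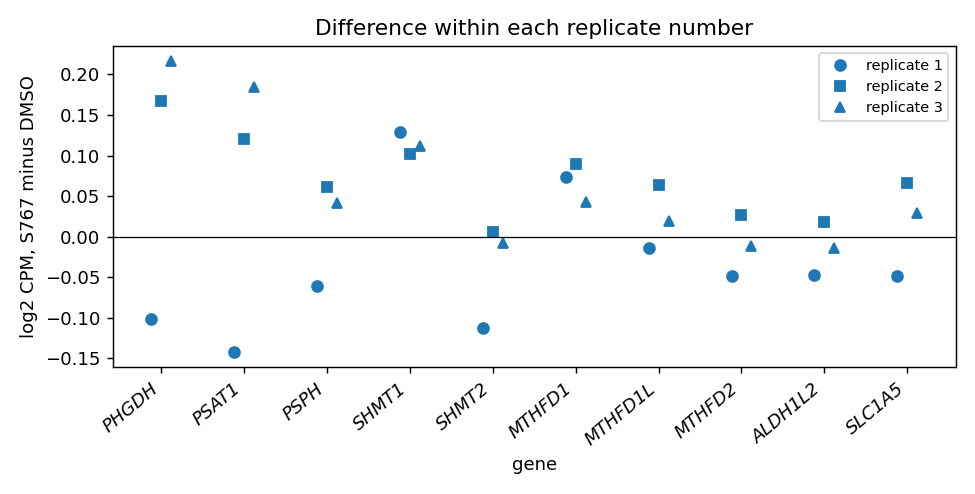
Difference in log2 CPM, S767 minus DMSO, for each gene within each replicate number (circle 1, square 2, triangle 3). PHGDH and PSAT1 spread most, from -0.10 to 0.22 and from -0.14 to 0.18, whereas SHMT1 lies between 0.10 and 0.13 and MTHFD1 between 0.04 and 0.09 in all 3 pairs.

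By Pearson correlation of log2 CPM over the 6 libraries, the genes outside the lists that followed the mean of PHGDH, PSAT1 and PSPH most closely, among 6191 genes with a mean log2 CPM above 5, were RPS4Y1 (0.98), ARMC1 (0.97), ZNF330 (0.96), ZZZ3 (0.96) and HDAC3 (0.96). ARMC1, ZNF330, ZZZ3 and HDAC3 had log2 fold changes of 0.01, 0.03, 0.02 and 0.01. PHGDH (0.992) and PSAT1 (0.997) are part of that mean and followed it closely, and PSPH, under the CPM limit, was not compared. Of the other members, MTHFD2 (0.85) and ALDH1L2 (0.84) were most like the mean. SHMT1 (0.28), SHMT2 (0.13) and MTHFD1 (0.13) were the least like it. Mitochondrial enzymes were thus at both ends, and MTHFD1L, also mitochondrial, gave 0.46. The points are 6 libraries that share replicate effects, and the values describe these libraries only.

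SHMT1 (ENSG00000176974.20, chr17:18327860-18363563), the cytosolic serine hydroxymethyltransferase, was at 26.5, 25.8 and 26.1 TPM in DMSO and at 28.6, 27.0 and 28.2 TPM in S767. Every S767 library lay above every DMSO library, in TPM and in CPM, where S767 libraries were all above for 5.34% of all genes. SHMT1 had a log2 fold change of 0.11 ± 0.04 (SE, P = 0.031 and adjusted p = 1.00 in edgeR's quasi-likelihood test with the Benjamini-Hochberg method, exact permutation p = 0.1), an estimated difference of 8.06% with a 95% interval of 0.921 to 15.7%. With the replicate block it was 0.11 ± 0.03 (SE), with an adjusted p = 0.038, and this call was lost on RSEM expected counts (adjusted p = 0.051) and without the replicate 2 pair (adjusted p = 0.37) or the replicate 3 pair (adjusted p = 0.10), all in edgeR with the block. The pairs gave 0.13, 0.10 and 0.11. The call at P under 0.05 without the block was lost when DMSO replicate 1, DMSO replicate 3, S767 replicate 2 or S767 replicate 3 was left out of the edgeR fit, at log2 fold changes of 0.09, 0.12, 0.10 and 0.11. Exons of SHMT1 overlap SMCR8 on the opposite strand over 2.69% of their bases, and between 4.18 and 4.94% of the fragments on SHMT1 lay on the forward-strand column, which was not used.

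The mitochondrial SHMT2 (ENSG00000182199.11, chr12:57229327-57234935) gave 221, 214 and 216 TPM in DMSO and 209, 206 and 208 TPM in S767. In TPM every S767 library lay below every DMSO library, as was so for 4.55% of all genes, but in CPM the groups overlapped. On the counts the log2 fold change was -0.04 ± 0.04 (SE, exact permutation p = 0.3), with a 95% interval of -0.13 to 0.05. By limma on log2(TPM + 1) it was -0.06, at P under 0.05 along with 5.12% of all genes (5.2% on log2(TPM + 0.1)), and with an adjusted p = 0.90 by Benjamini-Hochberg. The pairs differed by -0.11, 0.0054 and -0.0077, so the lower level rested on replicate 1 in CPM.

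Set against each other within a library, which needs no scaling between libraries, the cytosolic and mitochondrial forms were compared directly. The ratio of SHMT2 to SHMT1 in TPM was 8.33, 8.28 and 8.29 in DMSO and 7.32, 7.65 and 7.36 in S767. The ratio was lower in S767 in 3 of 3 pairs and the groups did not overlap, with a mean difference of -0.16 on the log2 scale, or a factor of 0.897. An exact permutation test over libraries, two-sided, gave p = 0.1, the smallest p that 3 libraries against 3 allow. From counts in place of TPM the difference was -0.15.

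MTHFD1 (ENSG00000100714.17, chr14:64388031-64463457), the trifunctional cytosolic enzyme, was at 146, 154 and 154 TPM in DMSO and at 157, 160 and 157 TPM in S767. In TPM every S767 library was above every DMSO library, as for 3.31% of all genes, but in CPM the groups overlapped. Its log2 fold change was 0.07 ± 0.05 (SE, exact permutation p = 0.4), with a 95% interval of -0.05 to 0.18. With the replicate block the interval was 0.02 to 0.12, with an adjusted p = 0.15 (edgeR's quasi-likelihood test, Benjamini-Hochberg). All 3 pairs were higher in S767, by 0.07, 0.09 and 0.04 in log2 CPM, and P was no longer under 0.05 with the block once the replicate 2 pair was left out (log2 fold change 0.06).

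The other mitochondrial enzymes had log2 fold changes near 0. MTHFD2 (ENSG00000065911.12, chr2:74198562-74217565), the dehydrogenase and cyclohydrolase that is often high in tumor cells, was at 167, 150 and 168 TPM in DMSO and 159, 148 and 163 TPM in S767, with a log2 fold change of -0.01 ± 0.04 (SE) and a 95% interval of -0.11 to 0.09. Replicate 2 was the lowest library in either treatment. MTHFD1L (ENSG00000120254.15, chr6:150865549-151101887), which releases formate for export to the cytosol, ranged from 76.6 to 80.3 TPM over the 6 libraries, with a log2 fold change of 0.02 ± 0.05 (SE) and a 95% interval of -0.09 to 0.13. ALDH1L2 (ENSG00000136010.14, chr12:105019784-105084577), which oxidizes formyl-tetrahydrofolate and yields NADPH, was at 14.3, 13.3 and 16.0 TPM in DMSO and 14.3, 13.5 and 16.2 TPM in S767. Replicate 3 was again the highest in either treatment, and the log2 fold change was -0.02 ± 0.07 (SE), with a 95% interval of -0.18 to 0.15. Exons of MTHFD2 overlap SLC4A5 on the opposite strand over 27.2% of their bases, and 0.400 to 0.677% of fragments there were on the unused strand column.

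The mitochondrial MTHFD1L and MTHFD2 were set against the cytosolic MTHFD1 in the same way. The ratio of MTHFD1L to MTHFD1 in TPM was 0.524, 0.514 and 0.521 in DMSO and 0.491, 0.492 and 0.503 in S767. The groups did not overlap, with a difference of -0.07 on the log2 scale (two-sided exact permutation test, p = 0.1). From counts it was -0.05 (exact permutation test, p = 0.2) and the groups overlapped. The ratio of MTHFD2 to MTHFD1 was 1.14, 0.973 and 1.09 in DMSO and 1.01, 0.925 and 1.04 in S767, lower in 3 of 3 pairs but with overlapping groups, and differed by -0.10 (exact permutation test, p = 0.3). The 3 ratios share MTHFD1 in part, no p can fall below 0.1 with these numbers, and no adjustment over them can reach 0.05.

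**Figure D4:**
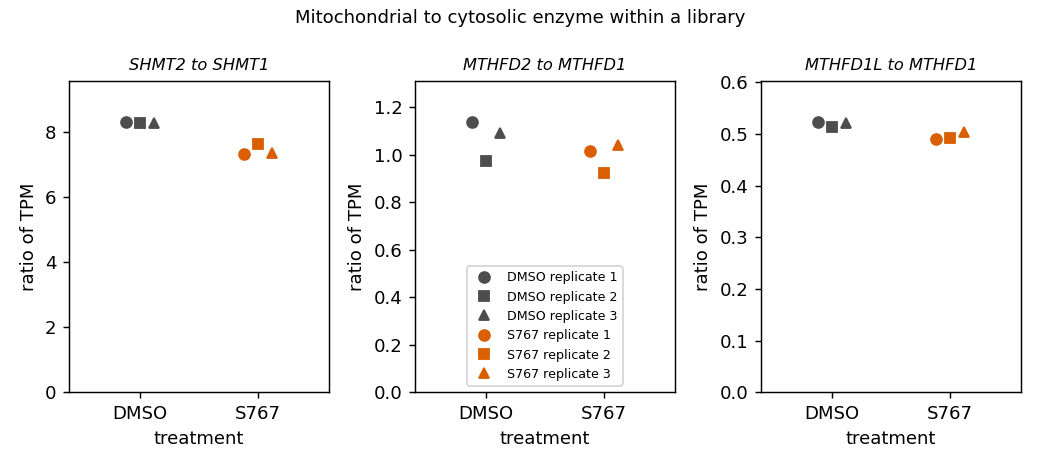
Ratio of the TPM of a mitochondrial enzyme to that of a cytosolic enzyme in each library, for SHMT2 to SHMT1, MTHFD2 to MTHFD1 and MTHFD1L to MTHFD1, with axes from 0, DMSO in gray and S767 in orange. The SHMT2 to SHMT1 ratio is 8.28 to 8.33 in DMSO and 7.32 to 7.65 in S767, and the MTHFD2 to MTHFD1 ratios overlap.

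SLC1A5 (ENSG00000105281.12, chr19:46774883-46788594), which exchanges glutamine, serine and other neutral amino acids across the plasma membrane, was at 237, 219 and 231 TPM in DMSO and 234, 223 and 231 TPM in S767. The groups overlapped fully, and the log2 fold change was 0.01 ± 0.04 (SE), with a 95% interval of -0.07 to 0.10. In CPM the transporter had the narrowest spread of all members over the S767 libraries, with a coefficient of variation of 1.07%. This was not so in TPM, where it was 2.43% for SLC1A5 and 0.621% for SHMT2.

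Around the members, 61 genes of 8 lists were followed, of which 57 were tested. Without a block, 2 were higher and 1 lower in S767 at P under 0.05, and edgeR's quasi-likelihood test called 0 after Benjamini-Hochberg adjustment, as did limma-voom and DESeq2, which each gave 2 higher and 1 lower at an unadjusted P under 0.05. With the replicate block 7 were higher and 12 lower at P under 0.05, and 2 higher and 1 lower after adjustment. The background at P under 0.05 was 3.53% of all genes without and 16.8% with the block. The 19 of 57 listed genes with the block are a larger share than that, and more were lower than higher. Over all 20725 genes tested, 1943 were higher and 1532 lower with the block, and 3.23% passed the adjusted limit. The listed genes have quite different roles and were chosen with earlier results known, so nothing common to them is read from these counts.

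In the folate cycle list, 1 of 15 tested genes was higher and 0 were lower without the block. With the block 2 were higher and 4 lower at P under 0.05, where 16.8% of all genes passed that limit. GGH, the hydrolase that trims polyglutamate tails from folates, was at 78.9, 73.8 and 72.5 TPM in DMSO and at 85.5, 78.3 and 80.4 TPM in S767. The groups overlapped in TPM, where S767 replicate 2 lay under DMSO replicate 1. In CPM every S767 library was above every DMSO library, as for 5.34% of all genes. GGH had a log2 fold change of 0.13 ± 0.04 (SE, P = 0.019 in edgeR's quasi-likelihood test, exact permutation p = 0.1), and an adjusted p = 0.024 under the replicate block, a call lost without the replicate 2 pair (adjusted p = 0.33) or the replicate 3 pair (adjusted p = 0.13). Without DMSO replicate 3 (0.09) or S767 replicate 1 (0.11) it no longer had P under 0.05 in the fit without a block. SFXN1, a mitochondrial serine carrier, gave 72.8, 71.1 and 74.3 TPM in DMSO and 73.5, 68.5 and 64.3 TPM in S767, with a log2 fold change of -0.06 ± 0.04 (SE, exact permutation p = 0.1) and a 95% interval of -0.14 to 0.02.

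For SLC25A32, the mitochondrial folate carrier, every S767 library was below every DMSO library in TPM, as for 4.55% of all genes. SLC25A32 was at 51.1, 50.9 and 49.6 TPM in DMSO and at 47.7, 46.2 and 46.3 TPM in S767. Most of its exonic bases, 69.7%, are shared with another gene on the same strand, fragments that match more than 1 gene are set apart in the count tables, and RSEM assigned 10.9 to 12.9 times as many fragments to the gene as the stranded counts hold. On the stranded counts the log2 fold change was -0.16 ± 0.08 (SE, exact permutation p = 0.1, adjusted p = 0.10 with the block), and on RSEM expected counts it was -0.10 ± 0.04 (SE), at P under 0.05 without the block and with an adjusted p = 0.047 with it (edgeR's quasi-likelihood test, Benjamini-Hochberg). MTHFS, which returns 5-formyl-tetrahydrofolate to the cycle, shares 34.0% of its exonic bases with ST20-MTHFS on the same strand and gave 0.25 ± 0.09 (SE) on RSEM expected counts, at P under 0.05 without the block and with an adjusted p = 0.034 with it (edgeR's quasi-likelihood test, Benjamini-Hochberg), against 0.14 ± 0.19 (SE, adjusted p = 0.80 with the block) on 31 to 60 stranded counts. MTHFS is named outside the rule for named genes, after its values were seen.

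The glycine cleavage list had 3 tested genes of 4 and none with P under 0.05, with or without the block. GLDC, its decarboxylase, was barely detected, at 0.08 to 0.21 TPM from 15 to 55 counts. No gene of the 5 in methionine cycle and transsulfuration or of the 6 in purine synthesis had P under 0.05 without the block. With it AHCY, which hydrolyses S-adenosylhomocysteine, was higher by 0.07, and in purine synthesis ATIC was higher by 0.05 and PAICS lower by -0.05, none of these past the adjusted limit. These 3 genes are named outside the rule, after their values were seen.

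In the list named for neutral amino acid transport, 1 of 6 tested genes was lower and 0 were higher without the block. With the block 3 were lower and 0 higher at P under 0.05, where 16.8% of all genes passed that limit. SLC7A11 stands in this list although it exchanges cystine and glutamate and is not a neutral amino acid transporter. Its level was 3.14, 2.42 and 3.91 TPM in DMSO and 2.38, 2.03 and 2.36 TPM in S767. In TPM every S767 library lay under every DMSO library, as for 4.55% of all genes, but in CPM the groups overlapped. SLC7A11 had a log2 fold change of -0.46 ± 0.15 (SE, P = 0.012 in edgeR's quasi-likelihood test, exact permutation p = 0.2), and an adjusted p = 0.0035 under the replicate block. It ranged from -0.62 without DMSO replicate 2 to -0.28 without DMSO replicate 3, and kept P under 0.05 in all 6 fits that left out a library.

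Of 8 tested serine users, 1 was higher and 0 were lower without the block. With the block 2 were higher and 0 lower at P under 0.05, where 16.8% of all genes passed that limit. SDSL, a serine dehydratase-like protein, stood at a low level of 0.52, 0.36 and 0.42 TPM in DMSO and 0.57, 0.49 and 0.67 TPM in S767, from 38 to 122 counts. Its groups overlapped in TPM, and the log2 fold change was 0.56 ± 0.23 (SE, P = 0.036 in edgeR's quasi-likelihood test, exact permutation p = 0.1). Without DMSO replicate 2 (0.42), DMSO replicate 3 (0.62) or S767 replicate 3 (0.37) it no longer had P under 0.05.

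The list of ATF4 and its targets is a selection of 12 genes and holds neither the members nor SLC7A11. None of the 12 had P under 0.05 without the block in edgeR's quasi-likelihood test. ATF4 itself, the factor known to induce serine synthesis genes, was at 429, 395 and 420 TPM in DMSO and 401, 391 and 402 TPM in S767, with overlapping groups and a log2 fold change of -0.05 ± 0.04 (SE), with a 95% interval of -0.14 to 0.05. ASNS, asparagine synthetase, was at 32.8, 29.3 and 38.9 TPM in DMSO and 32.8, 34.9 and 47.1 TPM in S767. Another gene on the same strand shares 44.6% of its exonic bases, its stranded counts numbered 175 to 522, and RSEM assigned 22.9 to 39.8 times as many. On the stranded counts the log2 fold change was -0.04 ± 0.24 (SE), with an adjusted p = 0.89 with the block. The estimate from RSEM expected counts had the opposite sign, 0.24 ± 0.16 (SE), with an adjusted p = 1.00 without the block and an adjusted p = 0.032 with it (edgeR's quasi-likelihood test, Benjamini-Hochberg). PCK2, the mitochondrial form of phosphoenolpyruvate carboxykinase, gave 0.17 ± 0.09 (SE, exact permutation p = 0.3), with an adjusted p = 0.018 under the block (edgeR's quasi-likelihood test, Benjamini-Hochberg), a call that was lost without the replicate 2 pair (0.12, adjusted p = 0.41), and is named outside the rule. With the block 4 of the 12 genes of this list were lower at P under 0.05 and 1 was higher. Over all 20725 genes tested, 1532 were lower and 1943 higher at that limit. After adjustment 0 of the 12 were lower and PCK2 alone was higher.

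Of the 2 other regulators, MYC was among the most abundant, at 483, 575 and 481 TPM in DMSO and 490, 554 and 475 TPM in S767. Replicate 2 was the highest in either treatment, and the log2 fold change was 0.01 ± 0.09 (SE), with a 95% interval of -0.21 to 0.22. MYC and NFE2L2 gave 0 genes with P under 0.05 in either edgeR fit.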

How the data were processed

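The authors trimmed reads, aligned them with STAR and quantified genes with RSEM, per the methods. The submitters' processing notes name STAR 2.7.1a, RSEM 1.2.28 and GRCh38, whereas the methods name a later RSEM version, and which made the files is not resolved here. The annotation release is not given in the sources used here. They deposited fragment counts per gene, not normalized, for both strands and each strand, and RSEM tables of expected counts, which are estimates and not whole numbers, and of TPM, which is scaled to transcript length and to the same total per library. The reverse-strand counts were used. Lines that name no gene, 20.3% of all fragments, were left out. Positions and overlaps come from GENCODE 29 on GRCh38, by gene identifier without its version.

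Genes passing filterByExpr (minimum count 10) were normalized by TMM and compared with the quasi-likelihood test of edgeR 4.0.16 (R 4.3.3), with Benjamini-Hochberg adjustment over all 20725 genes. The fit was tested on simulated data with planted changes larger than those of any member and with no replicate effect. That test does not cover differences of the size reported here. Expected counts were rounded. Alternatives were limma-voom and limma with trend (limma 3.58.1), DESeq2 1.42.0, other scaling, filters and quantities, leaving out each library, and the replicate number as a block. The numbers pair the libraries, since deviations from group means over 6191 genes correlated at 0.78, 0.87 and 0.75 within numbers. Correlations between numbers were negative, which the use of group means brings about once those within numbers are positive. They add nothing to the pairing. This pairing comes from the data, and neither labels nor methods say what a number shares. The study's methods name no block.

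The members and gene lists were chosen with earlier results of these data known. Named genes are all 10 members, genes of 8 lists with P under 0.05 and ATF4, ASNS, MYC, SLC25A32, SFXN1 and GLDC whatever their values, and the 5 genes most correlated with PHGDH, PSAT1 and PSPH. Others are named as exceptions.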

Additional observations from a re-analysis of the deposited data

How the results depend on the processing

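Depth limited no member, and the spread over 3 libraries a group set the width of the intervals. The number of members at P under 0.05 was 1 in edgeR without a block and with limma-voom, DESeq2, other scaling, other filters, RSEM expected counts and counts on both strands. It was 2 with limma on log2(TPM + 1) (5.12% of all genes) and 2 on log2(TPM + 0.1) (5.2% of all genes). It ranged from 0 to 2 when 1 library was left out. It was 0 without DMSO replicate 1, DMSO replicate 3, S767 replicate 2 or S767 replicate 3, and 2 without S767 replicate 1. Of all 20725 genes tested, those at that limit then numbered from 510 (without S767 replicate 2) to 1002 (without S767 replicate 1). With the replicate block the number of members was 2 (16.8% of all genes). It was also 2 when the block was combined with limma-voom, library size alone, RSEM expected counts or leaving out the replicate 3 pair. With the block and without the replicate 1 pair it was 4 (20.8% of all genes). Leaving out the replicate 2 pair gave 1. Members past the adjusted limit numbered 1 with the block, alone or combined with limma-voom or library size alone, 0 when it was combined with RSEM expected counts or leaving out the replicate 2 or 3 pair, and 3 (9.62% of all genes) without the replicate 1 pair. The combinations with the block were chosen after seeing the data. Fits that leave out a pair rest mainly on variance shared over genes and say little of the spread between these libraries.

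For genes of the surrounding lists, the number at P under 0.05 was 3 in the fit reported and 5 on RSEM expected counts. It was 19 with the block, and 18, 19 and 21 with the block and limma-voom, library size alone or RSEM expected counts. With the block and without the replicate 1, 2 or 3 pair it was 22, 14 and 10. Over all genes tested, the share at that limit was 3.53% in the fit reported and 16.8% with the block. With the block and without the replicate 1 pair it was 20.8%. Apart from the calls given here and in the report, the block changed no call of a member.

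Where signs turned, the turned value had P over 0.05. On log2(TPM + 1) and log2(TPM + 0.1), MTHFD1L gave -0.0084 and -0.0085 and ALDH1L2 0.0088 and 0.0093. Leaving out 1 library turned MTHFD1L to -0.0030 (DMSO replicate 1) and -0.0088 (S767 replicate 2), PSPH to -0.022 (DMSO replicate 2) and -0.023 (S767 replicate 3), SLC1A5 to -0.0085 (DMSO replicate 2), MTHFD2 to 0.016 (DMSO replicate 3) and 0.0062 (S767 replicate 1), and ALDH1L2 to 0.051, 0.017 and 0.017 (DMSO replicate 3, S767 replicates 1 and 2). Without S767 replicate 3, PHGDH turned to -0.016 and PSAT1 to -0.062. With the block, MTHFD2 turned to 0.0045 without the replicate 1 pair, PSPH to -0.012 and SLC1A5 to -0.012 without the replicate 2 pair, and PSAT1 to -0.018 and PSPH to -0.0080 without the replicate 3 pair. When 1 library was left out, log2 fold changes ran from -0.016 to 0.19 for PHGDH, -0.062 to 0.15 for PSAT1, -0.023 to 0.033 for PSPH, -0.0088 to 0.065 for MTHFD1L, -0.087 to 0.051 for ALDH1L2 and -0.0085 to 0.037 for SLC1A5. The ratio of MTHFD1L to MTHFD1 differed by -0.045 from counts and by -0.07 from TPM. The causes were not tested.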
